A study of Mus musculus with 4 samples.

Results

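The stretches of the mouse genome where H4K20me3 reads outnumber those of REST and Ring1b were mapped in embryonic stem cells, in bins of 100 kb. Chromosomes 1 to 19 held 24634 such bins, and 23145 of them had at least 50 REST and Ring1b reads together. For each of these eligible bins, the share of all H4K20me3 reads that fell in it was divided by the mean of its REST and Ring1b shares. The 1157 bins with the highest ratio, 5% of the eligible bins and 115.7 Mb of sequence, are described here as high-ratio bins, beside the other 21988. Reads with 1 reported location were used, and 1 read was kept per position and strand. The H4K20me3, REST and Ring1b reads of these bins chose them, so their values are a description; the MCAF1 library was not used in the choice.

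The cells were V6.5 mouse embryonic stem cells of mixed C57BL/6 and 129 background, without any genetic change or treatment named in the labels. They were maintained on feeder fibroblasts and grown off them for 2 passages before H4K20me3, MCAF1 and Ring1b chromatin immunoprecipitation and for 1 passage before that of REST. Gel slices held fragments of 150 to 350 bp for H4K20me3 and REST and of 150 to 300 bp for MCAF1 and Ring1b. Each antibody had 1 library, so antibody, sequencing run and culture cannot be told apart, and no difference between antibodies has a replicate check. The libraries held 7783420 (H4K20me3), 11026878 (MCAF1), 3131692 (REST) and 3087218 (Ring1b) distinct reads, which gave an average eligible bin 329.5, 466, 132 and 130.4 reads. The H4K20me3 and MCAF1 reads were aligned with a seed of 36 bases and the REST and Ring1b reads with a seed of 26 bases, a difference that runs along the numerator and the denominator of the ratio. No input library was used here. Intervals are exact 95% intervals for counting error only; neighbouring bins are not independent and bins are not replicates.

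H4K20me3, trimethylated lysine 20 of histone H4, is set by the SUV420H enzymes, which are brought to chromatin that carries methylated H3 lysine 9 and the HP1 proteins. It is best known from the satellite repeats beside centromeres, from telomeres and from silenced endogenous retroviruses in embryonic stem cells. MCAF1 (ATF7IP) works with SETDB1, an H3 lysine 9 methyltransferase that silences such retroviruses. REST binds a DNA motif at neuronal genes and represses them, and Ring1b, the Polycomb subunit that ubiquitinates histone H2A, is found mainly at CpG islands of developmental genes. Large bins average over these point-like sites and over the reads between them. Genes, base composition and sequences of the bins were not analysed here.

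High-ratio bins had a median ratio of 1.68, with the central 90% between 1.55 and 2.36, against a median of 0.974 and a central 90% from 0.559 to 1.41 in the other bins. A ratio of at least 2 was reached by 168 high-ratio bins (14.5%), of at least 2.5 by 38 and of at least 4 by 5. The threshold was 1.54, and it cut through a continuous distribution. Just inside it lay bins on chromosome 6 (82200001–82300000, mm8), chromosome 8 (95900001–96000000) and chromosome 9 (118000001–118100000), with 285, 306 and 499 H4K20me3 reads and ratios that all round to 1.54. Just outside lay bins on chromosome 16 (9800001–9900000), chromosome 5 (125200001–125300000) and chromosome 4 (128000001–128100000), with 377, 747 and 625 H4K20me3 reads and ratios that also round to 1.54. The counting interval of the ratio lay above the threshold in 284 high-ratio bins (24.5%), and it reached up to the threshold in 2609 of the other bins. Membership of a single bin close to the threshold is therefore not fixed at this depth.

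The 3 highest bins stood apart from the rest, with counting intervals above the ratios of all eligible bins other than these 3. The highest lay on chromosome 10 at 82800001–82900000, with 1663 H4K20me3 reads, 659 MCAF1 reads, 64 REST reads and 27 Ring1b reads and a ratio of 14.6 (11.8 to 18.2). H4K20me3 was 5.05 times as dense there as in an average eligible bin and MCAF1 1.41 times (1.31 to 1.53). The next was chromosome 17 at 6500001–6600000, with 1332, 474, 70 and 47 reads in the same order of libraries and a ratio of 9.11 (7.53 to 11.1). The bin on chromosome 4 at 155000001–155100000 held 1344, 375, 67 and 60 reads, a ratio of 8.46 (7.04 to 10.2). All 3 had a H4K20me3 density above 4 times the average with REST and Ring1b densities between 0.207 and 0.530 times the average, so both sides of the ratio were extreme. The chromosome 9 bin at 123700001–123800000 (1612, 658, 154 and 154 reads, ratio 4.18) and the chromosome 14 bin at 13100001–13200000 (703, 291, 69 and 67 reads, ratio 4.13) came next, and the interval of the chromosome 14 bin (3.43 to 4.9998) covered lower members, such as a chromosome 7 bin with a ratio of 3.698.

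These bins differed in how far the mark spread inside them. In the chromosome 10 bin, all 10 of its 10 kb parts had a larger share of H4K20me3 reads than the mean of REST and Ring1b. When 1 kb windows enriched in any library were left out, its ratio was still 10.3. A window counted as enriched at a Poisson probability of at most 1e-09 and at least 5 times background. On chromosome 17 the densest 10 kb held 66.3% of the bin's H4K20me3 reads, and the ratio was 2.30 without enriched windows. On chromosome 14 it held 82.6%, and the ratio without enriched windows was 1.15, below the threshold. The chromosome 9 bin also dropped below it, at 1.40, and held 12 windows enriched in H4K20me3 and 10 enriched in MCAF1. The chromosome 4 bin had a ratio of 4.13 without enriched windows, although 3 of its 10 parts carried the excess.

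Few members were so concentrated, but the share was higher than among the other bins. The densest 10 kb held at least 50% of the H4K20me3 reads in 14 high-ratio bins (1.21%, 0.663% to 2.02%) and in 37 other bins (0.168%, 0.119% to 0.232%). Its median share was 17.2% in both groups, and the 95th percentiles were 34.96% and 28.01%. In 979 high-ratio bins (84.6%, 82.4% to 86.6%) at least 8 of the 10 parts had a H4K20me3 share above the mean of REST and Ring1b, against 3829 other bins (17.4%, 16.9% to 17.9%). These reads chose the bins, so the contrast with the other bins follows from the choice and only the spread within members is described. Without enriched windows of any library the median ratio was 1.55 in high-ratio bins and 0.937 in the other bins, and 618 high-ratio bins (53.4%) and 33 other bins were past the threshold of 1.54. Leaving windows out also changes the library totals, so the ratio falls in bins without any such window. The chromosome 6 bin just inside the threshold, which had none, went from 1.540 to 1.441. With the highest 5% chosen again without these windows, the threshold was 1.44 and 1001 high-ratio bins (86.5%) were kept. A window enriched in H4K20me3 was present in 352 high-ratio bins (30.4%, 27.8% to 33.2%) and in 4922 other bins (22.4%, 21.8% to 22.9%). Windows enriched in Ring1b were present in 93 high-ratio bins (8.04%, 6.54% to 9.76%) and in 6033 other bins (27.4%, 26.8% to 28.0%). The contrasts in H4K20me3 and Ring1b windows follow from the choice as well. Windows enriched in MCAF1 were present in 55 (4.75%, 3.60% to 6.14%) and in 1136 (5.17%, 4.88% to 5.47%), a difference within the counting intervals.

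**Figure D1:**
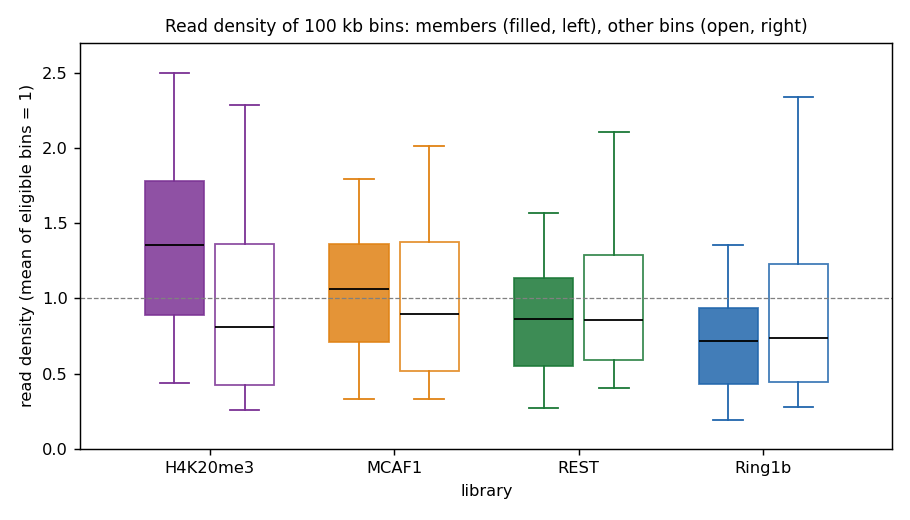
Read density of 100 kb bins in each library, with the mean of all 23145 eligible bins set to 1 (dashed line). Filled boxes on the left are the 1157 high-ratio bins and open boxes on the right the other 21988; boxes span the quartiles, lines inside them are medians, and whiskers reach the 5th and 95th percentiles. The H4K20me3 medians are 1.36 and 0.810, the MCAF1 medians 1.06 and 0.893, and the REST and Ring1b medians nearly coincide while the upper whiskers of the high-ratio bins are lower.

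A high ratio was not the same as a high H4K20me3 level. Median H4K20me3 density, relative to an average eligible bin, was 1.36 in high-ratio bins and 0.810 in the other bins. REST densities were 0.864 and 0.856 at the median, and Ring1b densities 0.713 and 0.736, so the medians of the denominator libraries were near those of the other bins. Against its own flanks, however, the median member was at 0.736 for REST and 0.608 for Ring1b, and at 1.03 for H4K20me3, as described below. Away from the median, REST and Ring1b were lower in the members at both ends. The 5th percentiles were 0.271 against 0.402 for REST and 0.192 against 0.276 for Ring1b. A density of at least 1.5 was reached by REST in 76 high-ratio bins (6.57%) and by Ring1b in 36 (3.11%), where 16.3% and 15.9% of all eligible bins reached it. H4K20me3 reached it in 463 high-ratio bins (40.02%), beside 21.3% of all eligible bins. These counts and percentiles follow from the choice of the bins and are read no further.

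The members fell into 3 kinds by level. In 324 of them (28.0%, 25.4% to 30.7%) both H4K20me3 and the mean of REST and Ring1b were at or above the average bin. Their median densities were 1.98 for H4K20me3, 1.54 for MCAF1, 1.30 for REST and 1.07 for Ring1b. In 486 (42.01%, 39.1% to 44.9%) H4K20me3 was at or above the average and REST and Ring1b below it, with medians of 1.37, 1.07, 0.879 and 0.713 in the same order. In the remaining 347 (29.99%, 27.4% to 32.7%) H4K20me3 itself was below the average bin, with medians of 0.622, 0.477, 0.394 and 0.284. In those 347 bins the name H4K20me3-rich holds only relative to REST and Ring1b, not for the level of the mark. The kinds are cut on the libraries that chose the members, so their shares are not set against those of the other bins.

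Members with little signal were also those with much sequence that occurs at another place in the genome. Alignments of reads with 2 reported locations, which the choice did not use, made up a median of 20.5% of all alignments, over the 4 libraries, in the 347 members with H4K20me3 below average, against 7.29% in the 13088 other bins of that kind. In the members with H4K20me3 and the mean of REST and Ring1b at or above average the median was 3.39%, against 3.688% in the other bins of that kind. At least 20% of alignments had 2 locations in 220 high-ratio bins (19.01%, 16.8% to 21.4%) and in 967 other bins (4.40%, 4.13% to 4.68%). Over all bins the medians were 5.24% and 5.48%, so this difference came from a minority of the members. Summed over bins, such alignments took 10.1% of H4K20me3 and 9.85% of MCAF1 alignments in high-ratio bins, against 5.57% and 5.32% in the other bins. In REST they took 15.7% against 10.95%, and in Ring1b 15.95% against 9.90%. The shorter seed of REST and Ring1b goes with the higher shares in these libraries, and its part in the low REST and Ring1b read numbers of such bins was not tested.

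Within these alignments themselves the H4K20me3 ratio was again higher in high-ratio bins than in the other bins. Among bins with at least 20 REST and Ring1b alignments of this class, the H4K20me3 ratio computed from them, scaled to each library's own number of such alignments, had a median of 1.11 in 971 high-ratio bins and 0.659 in 17157 other bins. The same ratio for MCAF1 was 1.01 and 0.701. Both libraries were thus higher relative to REST and Ring1b in high-ratio bins, in reads that had no part in the choice but came from the same libraries. REST and Ring1b of the same bins are the denominator both here and in the choice, so both ratios are a description.

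Reads of opposite strands gave another set of values, from reads outside each choice but from the same libraries. When the top 5% were chosen from plus-strand reads alone, with a minimum of 25 reads, 877 of the 1157 bins were among the high-ratio bins. On minus-strand reads these plus-strand choices had a median ratio of 1.60 and 98.7% of them were above 1, against 0.978 and 46.8% of the other bins. With the strands exchanged, 847 bins were shared, and the medians were 1.60 and 0.977. On the strand used for the choice the medians of the chosen bins were higher, at 1.73 and 1.72. Relative to REST and Ring1b on the strand that was not used, MCAF1 had medians of 1.28 and 1.30 in the chosen bins, against 1.06 in the other bins for either strand. The choice favoured low REST and Ring1b, which are also the denominator here, so the higher MCAF1 ratio is a description. The H4K20me3 ratios are a description as well, because both strands share the libraries and the bins. Reads of each strand also entered the main choice, so the numbers of shared bins are partly built in.

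MCAF1 lay between H4K20me3 and the other 2 libraries in the high-ratio bins. Its read number ranged from 85 to 1464 per bin with a median of 494, against 54 to 10817 with a median of 416 in the other bins. Relative to the average eligible bin, the median MCAF1 density was 1.06 against 0.893, and the quartiles were 0.708 to 1.36 against 0.519 to 1.38. The mean was 1.05 (1.049 to 1.055) against 0.997 (0.9967 to 0.9979). The 2 distributions overlapped over nearly their whole range. A MCAF1 density of at least 1.5 was found in 192 high-ratio bins (16.6%, 14.5% to 18.9%), where 19.4% of all eligible bins reached it. A density under 0.5 was found in 189 (16.3%, 14.2% to 18.6%), where 22.9% of all eligible bins fell under it. Both shares were under those of all eligible bins, so the members were placed towards the middle of the MCAF1 range. The first of them depends on the setting: it was 3.26% with a minimum of 200 reads and 9.72% for the highest 2% of bins, below the 6.64% and 19.4% of eligible bins under the same settings, but 20.8% for the highest 10% and 20.5% with REST alone as denominator, above 19.4%.

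The order of the libraries was the same when bins of like level were set side by side. Among bins with a H4K20me3 density of 1.5 to 2, median MCAF1 density was 1.35 in 300 high-ratio bins and 1.61 in 2491 other bins. Among bins with a mean REST and Ring1b density of 1 to 1.5, it was 1.503 in 276 high-ratio bins and 1.35 in 4629 other bins. For their H4K20me3 level the members had less MCAF1 than other bins, and for their REST and Ring1b level they had more. By the choice, members have less REST and Ring1b at a like H4K20me3 level. At a like REST and Ring1b level they have more H4K20me3. MCAF1 varies with these libraries across bins, so both directions are a description and no separate result for MCAF1. H4K20me3 over MCAF1, both as library shares, had a median of 1.28 in high-ratio bins and 0.922 in the other bins, and was above 1 in 1134 high-ratio bins (98.0%, 97.0% to 98.7%) and 7697 other bins (35.0%, 34.4% to 35.6%). H4K20me3 reads chose the members, so this contrast is a description; this pair of libraries had the same seed length. Across all eligible bins MCAF1 and H4K20me3 densities had a Spearman correlation of 0.964, and across the high-ratio bins 0.950; the bins share their libraries and vary in read depth in all of them, and no more is drawn from these values.

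**Figure D2:**
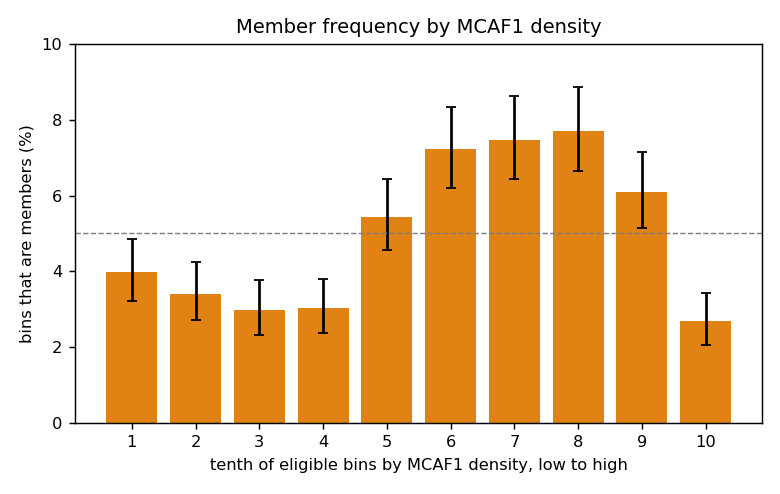
Share of bins that were high-ratio bins in each of 10 equal groups of the 23145 eligible bins ordered by MCAF1 density, from lowest to highest; error bars are exact 95% intervals and the dashed line marks 5%. The share is 2.98% to 3.97% in the 4 lowest groups, 7.22% to 7.69% in the sixth to eighth, and 2.68% in the highest.

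The share of members did not follow MCAF1 density in one direction. It was 3.97% (3.22% to 4.85%) in the lowest of 10 groups of eligible bins by MCAF1 density and 2.98% (2.33% to 3.76%) in the third. It was 7.69% (6.64% to 8.85%) in the eighth group, where MCAF1 density ran from 1.28 to 1.49. In the highest group, above 1.78, it was 2.68% (2.06% to 3.42%). The median ratio of all bins was 0.770 in the lowest group, 1.12 in the ninth and 1.09 in the highest. The ratio of all bins thus varied with MCAF1 density, and the member share describes only its upper tail. The members with the most MCAF1 were chromosome 1 at 90000001–90100000 (1464 MCAF1 reads, 1551 H4K20me3, 325 REST and 319 Ring1b), chromosome 10 at 79100001–79200000 (1269, 1704, 385 and 389) and chromosome 17 at 27100001–27200000 (1250, 1210, 389 and 238). Their MCAF1 densities were 3.14 (2.98 to 3.31), 2.72 (2.58 to 2.88) and 2.68 (2.54 to 2.84), and REST and Ring1b were also at 1.83 to 2.98 times the average. The members with the least MCAF1 were chromosome 7 at 10900001–11000000 (85 MCAF1 reads, 202 H4K20me3, 24 REST and 35 Ring1b), chromosome 7 at 62400001–62500000 (89, 107, 30 and 25) and chromosome 1 at 84900001–85000000 (92, 101, 28 and 23). Alignments with 2 locations took 50.2%, 24.6% and 67.9% of the reported alignments in these sparse bins, against 1.60% to 2.52% in the dense ones.

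Read density over all 4 libraries was moderate in the members. With the library shares averaged and the mean bin set to 1, median density was 1.01 in high-ratio bins and 0.835 in the other bins, and the 95th percentiles were 1.77 and 2.20. It was above the median of eligible bins in 722 members (62.4%, 59.5% to 65.2%), although the H4K20me3 reads that chose the members enter this measure. The share was 49.4% with a minimum of 200 reads, which turns the direction, and 52.6% with a minimum of 10. When bins were split by density into 5 groups of equal size, members of the sparsest to the densest group made up 3.78% (3.25% to 4.37%), 2.96% (2.49% to 3.49%), 6.07% (5.40% to 6.80%), 8.45% (7.66% to 9.29%) and 3.74% (3.21% to 4.32%). Median MCAF1 density within these groups was nearly equal in members and other bins, at 1.29 in both for the fourth group and at 1.67 and 1.78 for the fifth. MCAF1 is itself part of the density that formed the groups, so near-equal values are partly built in. From the sparsest to the densest group, the median ratio of all bins was 0.782, 0.876, 1.06, 1.12 and 1.08. In the lowest group the median member had 33.6% of alignments with 2 locations and a counting interval of the ratio 1.09 wide, against 3.47% and 0.429 in the highest group.

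**Figure D3:**
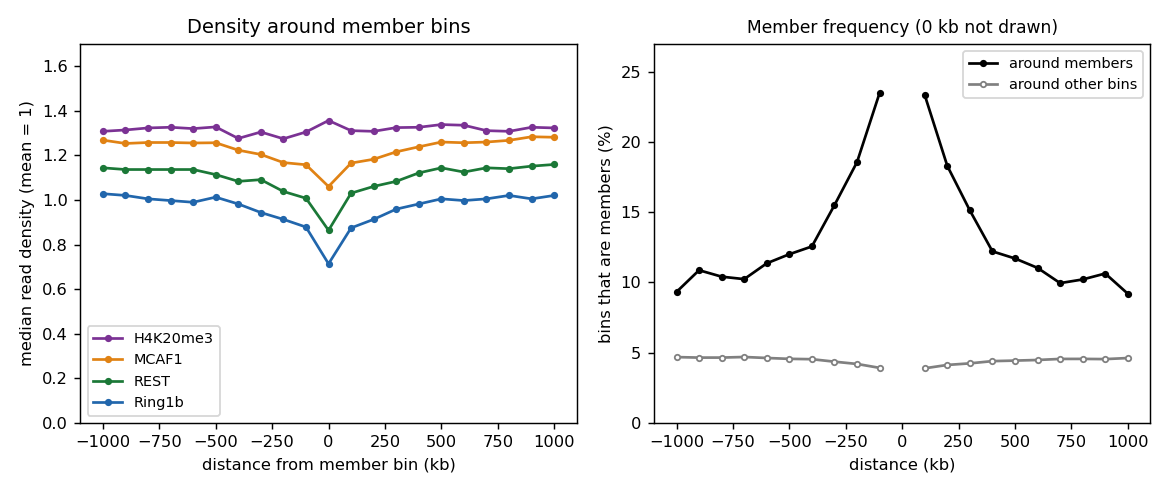
Left, median read density (mean of eligible bins set to 1) in the bins at each distance from a high-ratio bin, by library. Right, share of bins at each distance that were themselves high-ratio bins, around high-ratio bins (black) and around the other bins (grey). H4K20me3 stays between 1.27 and 1.36 throughout, MCAF1 is at 1.06 in the high-ratio bin, against 1.27 and 1.28 at 1 Mb, and REST and Ring1b dip further.

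The neighbourhood of the members was denser than that of the other bins in every library, and not in H4K20me3 alone. At 1 Mb on either side median H4K20me3 density was 1.31 and 1.32, close to the 1.36 of the members themselves. MCAF1 was at 1.27 and 1.28 there, against 1.06 in the members, REST at 1.14 and 1.16 against 0.864, and Ring1b at 1.03 and 1.02 against 0.713. The median ratio at this distance was 1.14 and 1.13. Each bin was then set against the mean of its own flanks, from 300 kb to 1 Mb on both sides. Median flank density around members and around other bins was 1.35 and 0.889 for H4K20me3 and 1.26 and 0.941 for MCAF1. For REST it was 1.19 and 0.912, and for Ring1b 1.18 and 0.870. H4K20me3 was above the flanks in 617 of 1152 high-ratio bins (53.6%, 50.6% to 56.5%) and in 9333 of 21935 other bins (42.5%, 41.9% to 43.2%). MCAF1 was above its flanks in 335 high-ratio bins (29.1%, 26.5% to 31.8%) and in 9806 other bins (44.7%, 44.0% to 45.4%). REST was above in 186 members (16.1%) and 44.8% of the other bins, and Ring1b in 120 members (10.4%) and 37.2% of the other bins.

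Relative to its flanks the median member thus had as much H4K20me3 (1.03 times), less MCAF1 (0.853 times) and still less REST (0.736 times) and Ring1b (0.608 times). In the other bins these medians were 0.933, 0.960, 0.963 and 0.869. The choice favoured high H4K20me3 and low REST and Ring1b, so the contrasts of these libraries with the other bins follow from it. The MCAF1 value was outside the choice, although MCAF1 and the mean of REST and Ring1b are correlated across bins (Spearman 0.953 over all eligible bins). The 3 kinds of member differed here. Where H4K20me3 and the mean of REST and Ring1b were at or above average, H4K20me3 was 1.24 times and MCAF1 1.04 times its flanks. Where H4K20me3 was below average, every library was below its flanks, at 0.679 for H4K20me3, 0.541 for MCAF1, 0.456 for REST and 0.337 for Ring1b. Those 342 members lay in flanks with a median H4K20me3 density of 1.02.

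High-ratio bins lay near each other, but few formed long stretches. Joined end to end they made 897 runs, of which 717 were single bins, 132 had 2 bins, 33 had 3 and 15 were longer. At least 1 direct neighbour was a member for 440 high-ratio bins (38.0%, 35.2% to 40.9%) and for 1587 other bins (7.22%, 6.88% to 7.57%). Another member lay within 1 Mb of 914 high-ratio bins (79.0%, 76.5% to 81.3%) and of 9385 other bins (42.7%, 42.03% to 43.3%). Directly beside a member 23.4% to 23.5% of eligible bins were members, and at 1 Mb 9.20% to 9.33% were, which is still above the 5% of all bins. The 176 members in runs of 3 or more bins had a median ratio of 1.75, against 1.66 for the 717 single bins. Their median MCAF1 density was 1.10 against 1.05. A MCAF1 density of 1.5 was reached by 19 members in such runs (10.8%, 6.63% to 16.3%) and by 138 single bins (19.2%, 16.4% to 22.3%). Of all eligible bins, 19.4% reached it. The bins of a run are neighbours and not independent, so these intervals do not measure the contrast. The label of a large-scale feature therefore covers 48 runs, and most members are features of a single bin at this threshold. Runs of at least 300 kb numbered 7 with 50 kb bins and 97 with 200 kb bins.

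**Figure D4:**
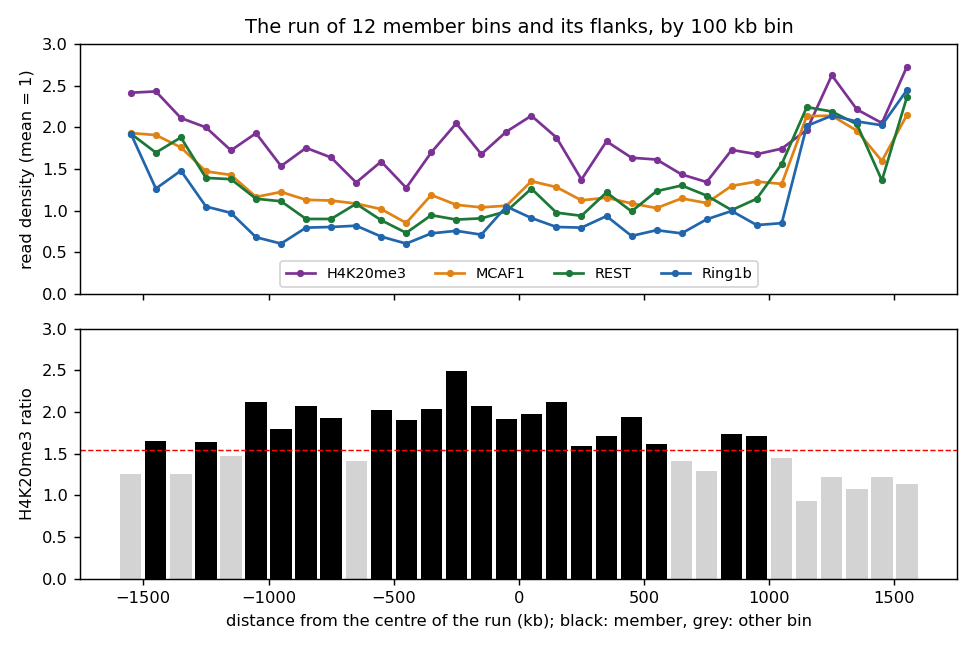
The longest run of high-ratio bins and 1 Mb on each side, by distance from its centre. Top, read density per 100 kb bin in each library (mean of eligible bins set to 1); bottom, the H4K20me3 ratio with high-ratio bins in black, other bins in grey and the threshold of 1.54 as a dashed line. H4K20me3 runs above the other libraries across the 12 bins and stays between 1.27 and 2.14, while MCAF1 stays between 0.854 and 1.35.

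The longest run covered 1200 kb of chromosome 15, at 86800001–88000000. Its 12 bins together held 6826 H4K20me3, 6185 MCAF1, 1583 REST and 1234 Ring1b reads, a ratio of 1.94 (1.85 to 2.02). The bins ranged from 1.59 to 2.49 in ratio and from 1.27 to 2.14 in H4K20me3 density. MCAF1 density was 0.854 to 1.35 and no bin reached 1.5. Of the run's 120 parts of 10 kb, 117 had more H4K20me3 than the mean of REST and Ring1b, and only 2 of its 1 kb windows were enriched in H4K20me3. Without enriched windows its ratio was 1.83. The excess was therefore spread along the whole run. A bin directly before the run had a ratio of 1.41, and the 4 bins before that one were members again, with ratios of 1.93, 2.07, 1.79 and 2.12. In the bin centred 1150 kb beyond the centre, REST, Ring1b and MCAF1 all exceeded 2 times the average and the ratio was 0.928 while H4K20me3 was at 1.97.

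The next runs were of different kinds. On chromosome 8, 600 kb at 121700001–122300000 held 4140 H4K20me3, 4194 MCAF1, 1084 REST and 839 Ring1b reads, a ratio of 1.72 (1.63 to 1.82). This run was dense in every library, with H4K20me3 at 2.09, MCAF1 at 1.5004, REST at 1.37 and Ring1b at 1.07 times the average. On chromosome 7, 600 kb at 33200001–33800000 held 1122, 1063, 245 and 139 reads, a ratio of 2.34 (2.08 to 2.63). This one was sparse throughout, with H4K20me3 at 0.568, MCAF1 at 0.380, REST at 0.309 and Ring1b at 0.178 times the average. Alignments with 2 locations took 33.0% of the alignments in it, against 3.68% in the chromosome 8 run.

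Runs of 500 kb numbered 5, and the 2 with the most H4K20me3 reads are described first. One, on chromosome 10 at 82500001–83000000, contains the bin with the highest ratio of all. It held 4374 H4K20me3, 3693 MCAF1, 726 REST and 665 Ring1b reads, a ratio of 2.51 (2.36 to 2.67), and 21 windows enriched in H4K20me3. The median of its 5 bins was 1.66 against 14.6 for the highest. The other, on chromosome 12 at 106900001–107400000, held 2491, 2742, 671 and 525 reads, a ratio of 1.67 (1.55 to 1.78), and no window enriched in H4K20me3. Its bins were alike, with ratios of 1.57 to 1.78 and MCAF1 densities of 1.12 to 1.32. The remaining 3 runs of this length lay on chromosome 7 at 137300001–137800000 and 111000001–111500000 and on chromosome 18. Their ratios were 1.74 (1.62 to 1.87), 1.697 (1.57 to 1.83) and 1.79 (1.66 to 1.93), and their MCAF1 densities 1.13, 1.10 and 0.987. All 3 were near the average bin in MCAF1 and held at most 1 window enriched in H4K20me3.

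**Figure D5:**
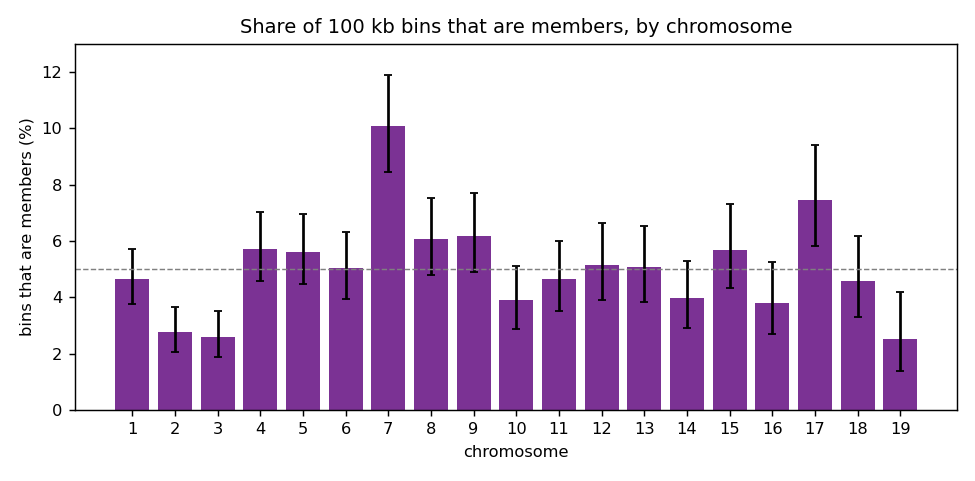
Share of eligible 100 kb bins that were high-ratio bins on chromosomes 1 to 19, with exact 95% intervals; the dashed line marks 5%. Chromosome 7 is highest at 10.1% and chromosome 19 lowest at 2.51%, with chromosomes 2 and 3 at 2.76% and 2.60%.

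Chromosomes differed in their share of high-ratio bins. Chromosome 7 had 125 of 1239 eligible bins (10.1%, 8.47% to 11.9%) in 89 runs, and chromosome 17 had 66 of 884 (7.47%, 5.82% to 9.40%). The lowest shares were those of chromosome 19, with 14 of 557 (2.51%, 1.38% to 4.18%), chromosome 3, with 40 of 1541 (2.60%, 1.86% to 3.52%), and chromosome 2, with 48 of 1742 (2.76%, 2.04% to 3.64%). Over all eligible bins, the median ratio was 1.10 on chromosome 7 and 1.06 on chromosome 17, against 0.974 on chromosome 19 and 0.932 on chromosome 3. The share of members with a MCAF1 density of at least 1.5 ranged from 0% on chromosome 19, with 14 members, to 33.3% on chromosome 8. There 25 of 75 members reached it, and on chromosome 7 the share was 11.2%. Over chromosomes 1 to 19 it was 16.6% of members, beside 19.4% of all eligible bins. The share of eligible bins on each chromosome is not given here, so these values are not read as traits of the members.

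The chromosome ends held somewhat more members than the rest. Mouse chromosomes have their centromere at the low-coordinate end. In the first 5 Mb from the first eligible bin 61 of 917 bins were members (6.65%, 5.13% to 8.46%), in the last 5 Mb 78 of 922 (8.46%, 6.74% to 10.4%), and between them 1018 of 21306 (4.78%, 4.50% to 5.07%). The interval of the centromeric end nearly touches that of the interior. Members at the 2 ends differed in level: median MCAF1 density was 0.588 in those of the first 5 Mb, below the 0.754 of the other bins there, and 1.34 in those of the last 5 Mb, above the 1.21 of the other bins there. With a minimum of 200 reads, 11.1% of members lay in the last 5 Mb, beside 5.50% of eligible bins, against 6.74% and 3.98% with the minimum of 50.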

How the data were processed

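The deposited files hold other values than counts: signed read positions, 1 line per reported alignment, made by the authors with Bowtie on mm8, per the file headers. Its version was not given in the sources used here. Reads with more than 2 locations were dropped, and up to 2 mismatches in the seed and a summed quality of 70 at mismatches were allowed, per the file headers. Chromatin with fragments of 500 bp on average was amplified over 18 cycles, per the labels' protocols.

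Positions were read as counting from 0 and printed counting from 1. Of 24634 bins, 1489 were under the minimum of 50 reads and 743 held no read. Densities are reads per bin over the mean of eligible bins. Ratio intervals are binomial, with REST and Ring1b reads pooled; shares have Clopper-Pearson and densities Poisson intervals. With 1 library per antibody no test was made, and repeated positions (2.06% to 12.6% of reads) were reduced to 1. The code that chose the bins was run on simulated Poisson counts with planted bins. This checked the code only and is no check of the members. The members, kinds and levels were chosen with earlier results of these data known. Named are the 5 longest runs (ties by more H4K20me3 reads), the 5 highest ratios, 3 bins on each side of the threshold, the 3 highest and 3 lowest in MCAF1, and the chromosomes with extreme shares; the chromosome 8 and 17 shares, the chromosome 2 share, the other 3 runs of 500 kb, a chromosome 7 bin below the 5 highest and the 4 bins before the longest run were singled out after their values were seen. The work used scipy 1.17.1 and numpy 2.4.6 under Python 3.11.15, with figures from matplotlib 3.10.9.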

Additional observations from a re-analysis of the deposited data

Results flagged for a closer look

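The X chromosome was outside the choice of bins. At the same threshold of 1.54, 13 of its 1066 bins past the read minimum qualified (1.22%, 0.651% to 2.08%), against 5% of the eligible bins of chromosomes 1 to 19. The median ratio on the X chromosome was 0.747, against 0.993 on chromosomes 1 to 19. X bins were shallower, with a median of 81 REST and Ring1b reads together against 212, and copy number cannot be told apart from the level of the mark. The ratio also varied with read density on chromosomes 1 to 19. In the sparsest of the 5 density groups there, the median ratio of all bins was 0.782 and 3.78% were members. How far depth accounts for the X values was not tested. The X bins are given because no comparison above used them.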

How the results depend on the processing

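No paired analysis was possible because each antibody has 1 library. Chosen by 18 other settings, at least 50% of the sequence of between 463 and 1157 of the 1157 high-ratio bins was chosen again. The number was 463 for the highest 2%, where no more could be chosen, and 1157 for the highest 10%, where none could be lost. It was 598 with a minimum of 200 pooled reads, where the threshold was 1.536 and every high-ratio bin with enough reads was kept. It was 659 with 200 kb bins and 532 with MCAF1 alone as denominator, a setting added after the data were seen. Runs of at least 300 kb numbered 48; they were 7 with 50 kb bins, 97 with 200 kb bins, 10 for the highest 2%, 157 for the highest 10% and 24 with a minimum of 200 reads. The share of members with a MCAF1 density of at least 1.5, 16.6%, was 9.72% for the highest 2%, 20.8% for the highest 10%, 14.5% and 3.26% with minimums of 10 and 200 reads, 20.5% with REST and 13.7% with Ring1b alone as denominator, 18.9% without enriched windows, 8.94% with at least 90% of windows covered and 39.6% with MCAF1 as denominator. The median MCAF1 density of members stayed above that of the other bins in all 18, but by 0.966 against 0.958 with a minimum of 200 reads. The share of members above the median density, 62.4%, was 67.5% with 200 kb bins, 54.4% and 68.1% for the highest 2% and 10%, 52.6% and 49.4% with minimums of 10 and 200 reads, 69.9% with REST, 54.5% with Ring1b and 75.7% with MCAF1 as denominator, 66.2% without enriched windows and 58.9% on minus-strand reads. The share in the last 5 Mb, 6.74%, was 11.1% with a minimum of 200 reads and 8.71% with at least 90% of windows covered, where 5.50% and 4.59% of all eligible bins lay there. The share above the median percentage of alignments with 2 locations, 48.5%, was 52.7% and 41.2% with 50 and 200 kb bins, 57.7% and 41.5% for the highest 2% and 10%, 56.3% and 40.5% with minimums of 10 and 200 reads, 44.8% with REST, 52.8% with Ring1b and 34.8% with MCAF1 as denominator, 44.7% without enriched windows, 52.2% with reads of 1 or 2 locations and 38.9% with at least 90% of windows covered. The cause of these shifts was not tested. A bin of average REST and Ring1b depth has about 132 and 130.4 reads, which limits the ratio of a single bin more than H4K20me3 does.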
